A study of Mus musculus with 4 samples.

Results

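Marginal reticular cells are fibroblastic stromal cells that line the floor of the subcapsular sinus of lymph nodes, at the outer edge of the B cell follicles. They are known for making RANK ligand, the cytokine encoded by Tnfsf11, and CXCL13, the chemokine that draws B cells into follicles through the receptor CXCR5. Lymphotoxin signalling is known to maintain them, and in the mouse they are regarded as able to give rise to follicular dendritic cells. Notch receptors are membrane proteins whose cleaved intracellular part acts with the DNA-binding protein RBPJ on target genes such as Hes1.

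Here these cells were chosen by a rule on raw molecule counts (UMIs, unique molecular identifiers) in single-cell RNA-seq of mouse lymph node stroma. A cell needed at least 2 UMIs of Cxcl13 and a UMI of at least 2 of 7 companion genes, which were Tnfsf11, Hamp2, Prkg2, Brinp3, Kcnq3, Timd4 and Smoc1. It also had to hold no UMI of Cr2, Pecam1 or Ptprc, at most 3 UMIs of Ptgs2 and Il6 together and at most 2 of Cxcl9. The rule was met by 2160 of the 46638 cells that had at least 500 genes, at least 1000 UMIs and at most 10% mitochondrial UMIs, of 50316 deposited barcodes. Because these 14 genes chose the cells, their levels below are a description of the choice.

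The study asked what loss of Notch2 does to lymph node fibroblasts. Each of the 4 libraries pooled axillary, brachial and inguinal nodes of female C57BL/6 mice of 12 weeks, and held sorted live cells without the surface proteins CD45 and CD31. The Notch2 cKO library of batch 1 came from 6 Ccl19-Cre mice with both the Notch2 fl/fl alleles and the R26R-EYFP reporter, and that of batch 2 from 3 Notch2 fl/fl mice with Ccl19-Cre and no reporter in the label. The control of batch 1 came from 6 non-littermate Ccl19-Cre x R26R-EYFP mice with unfloxed Notch2, and that of batch 2 from 3 littermates labelled Notch2 fl/fl, without Cre in the genotype label. The title of the batch 2 control conflicts with that label, since it names Ccl19-Cre and WT and no floxed allele. By the genotype labels the controls differ from each other in Cre, in the floxed allele and in the reporter, and by the titles in the reporter. Ccl19-Cre acts in cells with present or past activity of the Ccl19 promoter, so deletion in a given reticular cell was not shown by the labels. A library is the replicate, n = 2 in each genotype, and its mice cannot be separated.

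The batches differed far more than the genotypes. Libraries held between 21533049 and 119002408 UMIs, and the median cell of the batch 2 libraries held 7604.5 UMIs in Notch2 cKO and 6169 in control, against 2960 and 2123 in batch 1. The marginal reticular cells numbered 48 and 1019 in the Notch2 cKO libraries of batches 1 and 2, against 59 and 1034 in the controls. Their summed UMIs were 158572 and 8402177 in Notch2 cKO, against 151075 and 7970889 in control, so single genes in batch 1 rest on few molecules. Between 21 and 57 barcodes were shared by any pair of libraries, at most 0.546% of the smaller one, and none of them was a marginal reticular cell in both. In batch 2, 3.43% of the cells in Notch2 cKO and 3.68% in control lay above the 95th percentile of UMIs of their library, and in batch 1 0 and 5 cells did. No doublet caller was run.

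Markers outside the rule gave the label mixed support. Enpp2, which encodes the lysophosphatidic acid producing enzyme autotaxin, stood at 7233 and 4873 CPM (the UMIs of a gene, scaled so that every population of a library has the same total) in Notch2 cKO and at 4329 and 4575 in control marginal reticular cells. In Ccl21a-high cells of the same libraries it stood at 936 and 923 in Notch2 cKO and at 706 and 938 in control. Ccl21a-high cells are the comparison population throughout, with at least 5 UMIs of Ccl21a, none of Cxcl13 and the same limits on the other genes. Ccl21a encodes the chemokine of the T cell zone, and 10118 cells met that rule.

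Madcam1, which encodes an addressin often used to mark marginal reticular cells in tissue sections, was low. It had 25.2 and 14.5 CPM in Notch2 cKO and 13.2 and 23.3 in control marginal reticular cells. In Ccl21a-high cells it had 6.09 and 5.41 in Notch2 cKO, and 31.2 and 23.2 in control. Batch 1 marginal reticular cells held 4 Madcam1 UMIs in Notch2 cKO and 2 in control. Madcam1 was higher in marginal reticular cells in both Notch2 cKO libraries. In control it was level in batch 2, and the lower value of batch 1 rests on those 2 UMIs. It did not clearly mark marginal reticular cells in control nodes.

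Bst1, which encodes the stromal surface enzyme BP-3, ranged from 197 to 238 CPM in marginal reticular cells and from 327 to 408 in Ccl21a-high cells. The adhesion gene Vcam1 ranged from 894 to 1026 in marginal reticular cells and from 963 to 1214 in Ccl21a-high cells. These genes mark reticular cells of both kinds. The name therefore rests on Cxcl13 with its companion genes and on Enpp2.

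Fibroblast genes were present in the summed UMIs, and genes of T cells and endothelium were scarce. Pdgfra, the platelet-derived growth factor receptor of fibroblasts, ranged from 291 to 416 CPM in the marginal reticular cells. Once thinned to 2000 UMIs, 17 of 28 and 299 of 545 of the cells that met the rule in Notch2 cKO, and 17 of 24 and 360 of 563 in control, held a UMI of Pdgfra, Pdgfrb or Pdpn. Over all 7 T cell markers the summed level ranged from 0 to 5.71 CPM in Notch2 cKO and from 0 to 5.90 in control, and the 7 B cell markers summed to 18.9 and 18.2 in Notch2 cKO and to 79.4 and 21.0 in control. The 7 endothelial markers summed to 18.9 and 18.8 in Notch2 cKO and to 13.2 and 13.7 in control. Cd3e, Cdh5 and C1qa were at 0 in both batch 1 libraries and below 1 CPM in batch 2. The mural cell genes Abcc9 and Kcnj8, which encode subunits of a potassium channel, were present at 470 to 952 and 134 to 205 CPM, and the pericyte gene Rgs5 at 158 to 563. In Ccl21a-high cells Rgs5 ranged from 350 to 737. All 6 pericyte markers summed to 1286 and 1292 in Notch2 cKO and to 1330 and 1228 in control marginal reticular cells, against 686 and 881 in Notch2 cKO and 1226 and 1296 in control Ccl21a-high cells. The 7 follicular dendritic cell markers summed to 6924 and 5425 in Notch2 cKO and to 3621 and 3809 in control marginal reticular cells, against 5857 and 5706 in Notch2 cKO and 5531 and 4624 in control Ccl21a-high cells. Nearly all of the follicular dendritic cell sum was Clu. It had 6842 and 5350 in Notch2 cKO and 3541 and 3750 in control marginal reticular cells, and 4597 to 5794 in Ccl21a-high cells. Fcgr2b had at most 6.62 in any library of marginal reticular cells, and Cr2 was absent by the rule. For both lists the ranges of the populations overlapped, and their part in the results was not tested.

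Among the genes of the rule, Cxcl13 was by far the most abundant. Its median was 14 and 27 UMIs per cell in Notch2 cKO and 7 and 14 in control, and its level was 6086 and 6421 CPM in Notch2 cKO, against 3786 and 4039 in control. Both Notch2 cKO values lay above both control values. In the edgeR quasi-likelihood fit described below its log2 difference was 0.62 with a standard error of 0.34 and a Benjamini-Hochberg adjusted p of 1.00. The cells were taken for their Cxcl13, and the same cut of 2 UMIs applies to both genotypes, so the value is a description.

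Tnfsf11 was found in 91.7% and 74.8% of the cells in Notch2 cKO and in 69.5% and 71.9% in control, at 536 and 372 CPM in Notch2 cKO and 404 and 352 in control. Timd4, which encodes the phosphatidylserine receptor TIM-4 better known from macrophages, was found in 29.2% and 46.1% of the cells in Notch2 cKO and 49.2% and 50.4% in control. Prkg2, a cyclic GMP dependent kinase gene, had 189 and 169 CPM in Notch2 cKO and 291 and 153 in control. The order of the 2 genotypes differed between batches for Prkg2.

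Brinp3 and Kcnq3 differed by batch. Brinp3, whose product is studied mainly in neurons, had 25.2 and 205 CPM in the Notch2 cKO libraries of batches 1 and 2, against 33.1 and 134 in control. Kcnq3, a voltage-gated potassium channel gene, had 6.31 and 48.2 in Notch2 cKO, against 13.2 and 50.6 in control. The file headers give another Cell Ranger version for batch 2 (7.1.0) than for batch 1 (5.0.1), and the part of that change in these values was not tested.

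Hamp2 is a mouse paralog of Hamp, the gene of the iron hormone hepcidin, which is made mainly by the liver. Hamp2 had 473 and 118 CPM in Notch2 cKO and 139 and 261 in control, so that the genotypes stood in opposite order in the 2 batches. It was found in 64.6% and 41.3% of cells in Notch2 cKO and in 28.8% and 47.9% in control. Tnfsf11 and Hamp2 were detected together in 56.3% and 31.6% of cells in Notch2 cKO and in 13.6% and 35.5% in control. The rule did not use Hamp itself, which had 126 and 43.1 CPM in Notch2 cKO and 13.2 and 25.8 in control marginal reticular cells, and at most 1.13 in any library of Ccl21a-high cells.

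The 2 hepcidin genes are near copies. Their longest coding transcripts in GENCODE M21 were identical at 94.6% of 410 aligned bases, so reads of Hamp and Hamp2 may be split between them and their separate levels are uncertain. The 250 bases before each RefSeq start (GRCm38.p6, minus strand) are shown because the marker gene and its paralog are read out in the same cells and differ at a known promoter element. Capitals mark the element GGCGCC of Hamp, known from the human hepcidin gene as the core through which bone morphogenetic protein signals act, and the bases of Hamp2 aligned with it.
Hamp2, chr7:30924182-30924431: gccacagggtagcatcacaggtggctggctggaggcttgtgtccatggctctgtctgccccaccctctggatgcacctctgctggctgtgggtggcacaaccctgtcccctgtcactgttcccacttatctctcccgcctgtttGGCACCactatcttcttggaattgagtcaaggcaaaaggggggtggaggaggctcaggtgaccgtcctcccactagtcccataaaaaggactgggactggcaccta
Hamp, chr7:30944030-30944279: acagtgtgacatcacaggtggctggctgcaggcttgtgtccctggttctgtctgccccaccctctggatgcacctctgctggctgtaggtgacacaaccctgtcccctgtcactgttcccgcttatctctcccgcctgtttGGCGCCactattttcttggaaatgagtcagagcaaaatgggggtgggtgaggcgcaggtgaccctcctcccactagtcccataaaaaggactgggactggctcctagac
The windows were identical at 91.9% of 247 aligned bases. Counted from 1 at the 5′ end of the element, Hamp2 carries G4A relative to Hamp. GGCGCC, which reads the same on both strands, was in 9.59% of the 32851 listed windows of this length.

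The share of cells that met the rule depended on batch and depth, and the test over libraries could not decide on a genotype difference. Without correction for depth it was 0.614% and 7.99% in Notch2 cKO, against 0.652% and 6.08% in control. With every cell thinned at random to 2000 UMIs it was 0.438% in batch 1 (28 of 6392 cells, exact binomial 95% interval 0.291% to 0.632%) and 4.47% in batch 2 (545 of 12205 cells, 4.11% to 4.85%) in Notch2 cKO. In control it was 0.465% (24 of 5156 cells, 0.298% to 0.692%) and 3.59% (563 of 15677 cells, 3.31% to 3.89%). These intervals cover counting error only. Thinning left out 1425 and 549 shallower cells in Notch2 cKO and 3897 and 1337 in control.

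The thinned share averaged 2.45% ± 2.85 in Notch2 cKO and 2.03% ± 2.21 in control (SD, n = 2 libraries each), a difference of 0.423 percentage points with an exact permutation p of 1.00, two-sided. With 2 libraries against 2 the smallest p is 0.333. The test ignored the pairing by batch, and the SDs hold the gap between batches. A difference within batches was therefore not tested. Notch2 cKO stood at 0.941 times control in batch 1 and at 1.24 times in batch 2. Among cells with a UMI of Pdgfra, Pdgfrb or Pdpn the difference was -0.0551 points, with 17 of 5359 and 299 of 8103 cells in Notch2 cKO and 17 of 3584 and 360 of 9882 in control. This limit took cells out of both the count and the total, so the direction of the difference depended on which cells were considered.

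Cells that carry the pericyte gene Rgs5 and lack Pdgfra often held a Cxcl13 UMI but seldom met the rule. Among cells with at least 5 UMIs of Rgs5 and no Pdgfra, thinned to 2000 UMIs, 13.6% and 27.7% in Notch2 cKO and 18.1% and 24.4% in control held a Cxcl13 UMI. Without thinning it was 10.5% and 46.4% in Notch2 cKO and 22.1% and 37.8% in control, at median depths of 2394.5 and 4917 UMIs in Notch2 cKO and 2831 and 4552 in control. In the marginal reticular cells, with median depths of 3239 and 7650 in Notch2 cKO and 2341 and 7162.5 in control, thinning left 95.6% and 94.2% with a Cxcl13 UMI in Notch2 cKO and 100% and 88.7% in control. The whole rule was met after thinning by 0 of 22 and 10 of 545 of the Rgs5-bearing cells in Notch2 cKO and by 0 of 265 and 13 of 1090 in control. Whether these cells make Cxcl13 or took it up as free RNA was not tested.

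**Figure D1:**
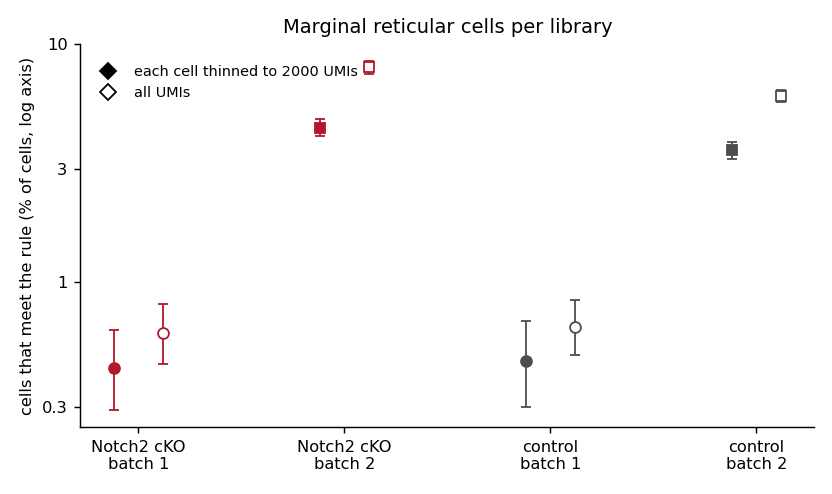
Share of cells meeting the rule in each library (percent, log axis), with exact 95% binomial intervals. Filled points are cells thinned to 2000 UMIs, open points all UMIs; circles are batch 1 and squares batch 2. Both batch 2 libraries lie several-fold above both batch 1 libraries, and the genotypes lie close within each batch.

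Beyond the genes of the rule, marginal reticular cells carried a set of secreted proteins, enzymes and signalling genes at several times the level of Ccl21a-high cells. Among genes of at least 50 CPM in every library of marginal reticular cells, the 15 with the largest lowest ratio over the 4 libraries were Aox3, Stc1, Rspo3, Ptn, Blnk, Inmt, Scara5, Cyp2f2, Col6a6, Enpp2, Id1, Slc5a3, Galnt18, Cavin2 and Ano1. They were ranked on these cells, and a choice by Cxcl13 fixes which cells enter, so their levels carry no test.

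Among the secreted products, Stc1, which encodes the glycoprotein hormone stanniocalcin 1, had 555 and 433 CPM in Notch2 cKO and 324 and 424 in control. In Ccl21a-high cells it had 13.6 and 10.1 in Notch2 cKO and 13.6 and 23.6 in control, so marginal reticular cells held 18.0 to 43.1 times the level of Ccl21a-high cells of their library. Every library of marginal reticular cells stood above every library of Ccl21a-high cells. In all remaining cells without Pecam1 or Ptprc, Stc1 was higher than in Ccl21a-high cells. It had 43.6 and 54.0 there in Notch2 cKO and 84.4 and 133 in control.

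Rspo3, which encodes the Wnt signal enhancer R-spondin 3, had 82.0 and 134 CPM in Notch2 cKO and 72.8 and 82.0 in control, 11.3 to 23.0 times the level of Ccl21a-high cells of the same library. Ptn, which encodes the heparin-binding growth factor pleiotrophin, had 189 and 276 in Notch2 cKO and 834 and 660 in control. In Ccl21a-high cells Ptn had 4.39 and 9.20 in Notch2 cKO and 61.1 and 73.0 in control. In all remaining cells without Pecam1 or Ptprc it had 35.8 and 65.7 in Notch2 cKO and 349 and 271 in control. Ptn was thus set apart both by population and by genotype.

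Enzymes made up a further group. Aox3, an aldehyde oxidase gene, ranged from 65.6 to 89.5 CPM in marginal reticular cells and from 1.48 to 3.29 in Ccl21a-high cells. Inmt, which encodes an indole and amine methyltransferase, had 1034 and 1048 in Notch2 cKO and 576 and 618 in control marginal reticular cells, and 80.3 to 112 in Ccl21a-high cells. Cyp2f2, a cytochrome P450 gene, had 75.7 and 121 in Notch2 cKO and 146 and 134 in control, and at most 23.3 in Ccl21a-high cells. The remaining cells without Pecam1 or Ptprc held more of these genes than Ccl21a-high cells. Aox3 ranged there from 6.43 to 17.2 and Inmt from 252 to 345. Cyp2f2 had 41.8 and 24.2 there in Notch2 cKO and 91.0 and 73.8 in control.

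In the bone morphogenetic protein pathway, the target gene Id1 had 114 and 177 CPM in Notch2 cKO and 86.0 and 105 in control. In Ccl21a-high cells it ranged from 10.6 to 22.1. Id1 is a transcription inhibitor of the helix-loop-helix family and stood 4.74 to 16.7 times higher in marginal reticular cells than in Ccl21a-high cells across the libraries. It did not set them apart from the Rgs5-bearing cells without Pdgfra in every library. Those had 120 and 186 in Notch2 cKO and 17.0 and 101 in control. Ano1, a calcium-activated chloride channel gene, ranged from 364 to 523 in marginal reticular cells and from 41.7 to 108 in Ccl21a-high cells. In the Rgs5-bearing cells it had 120 and 322 in Notch2 cKO and 79.3 and 289 in control.

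In the opposite direction the same rule gave Stmn2, Ly6h, Slc7a11, Prkcb, Nfasc, Col14a1, Ccl21a, Limch1, S100a11 and Mgp. Ccl21a itself, on which the comparison population was chosen, had 1766 and 4862 CPM in Notch2 cKO and 2476 and 3289 in control marginal reticular cells, so it was not absent from them. Ccl19, the companion chemokine whose promoter drives the Cre, had 290 and 938 in Notch2 cKO and 920 and 1481 in control. In Ccl21a-high cells Ccl19 had 1162 and 2276 in Notch2 cKO and 4505 and 4397 in control. The survival cytokine gene Il7 ranged from 69.4 to 90.7 in marginal reticular cells and from 229 to 260 in Ccl21a-high cells.

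**Figure D2:**
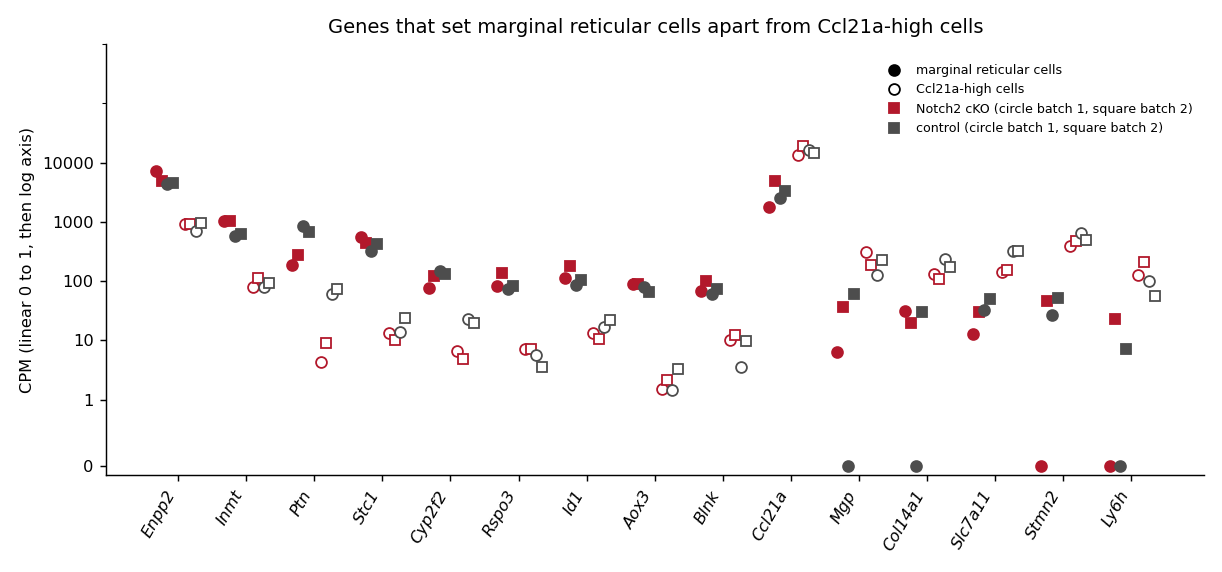
Levels (CPM, log axis above 1) of 15 genes in marginal reticular cells (filled) and Ccl21a-high cells (open) of the 4 libraries, Notch2 cKO in red left of control in grey. Enpp2 to Blnk lie higher in marginal reticular cells in all 4 libraries, and Ccl21a to Ly6h lie higher in Ccl21a-high cells.

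The edge of the rule was gradual. Of the marginal reticular cells, 31 and 431 in Notch2 cKO and 47 and 473 in control had exactly 2 companion genes, and 7 and 53 in Notch2 cKO and 13 and 86 in control had exactly 2 Cxcl13 UMIs. Just outside, 136 and 862 cells in Notch2 cKO and 219 and 776 in control had Cxcl13 but a single companion gene, and 819 and 1949 in Notch2 cKO and 710 and 1065 in control had none. With a single Cxcl13 UMI and at least 2 companion genes there were 9 and 64 cells in Notch2 cKO and 10 and 131 in control. The median UMIs of the 4 classes with 0, 1, 2 and 3 or more companion genes lay within a range of 7439 to 8935 in Notch2 cKO and 5822 to 7467 in control of batch 2.

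Genes that the rule did not use changed in steps across these classes. In Notch2 cKO of batch 2, Enpp2 had 1189, 2089, 3562 and 5820 CPM in cells with 0, 1, 2 and 3 or more companion genes. In control of batch 2 it had 1494, 2511, 3375 and 5486. Stc1 had 30.6, 94.4, 261 and 557 in Notch2 cKO and 109, 229, 304 and 515 in control of that batch. Both genes climbed at each step in both libraries.

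Ccl21a ran the other way, at 14108, 11040, 7112 and 3238 CPM in Notch2 cKO of batch 2 and 8526, 6082, 4477 and 2387 in control. Cells with a single companion gene thus lay between the marginal reticular cells and the remaining Cxcl13-bearing cells. Hamp was concentrated at the top in batch 2, with 0.848, 3.85, 13.1 and 64.8 in Notch2 cKO and 0.904, 1.11, 3.20 and 43.0 in control. Since Hamp2 is a companion gene and its near copy, the step in Hamp may share reads with the choice.

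For Cilp the genotypes lay furthest apart in CPM where companion genes were fewest. Cilp, which encodes a cartilage matrix protein known to bind TGF-beta, had 868, 618, 438 and 131 CPM in Notch2 cKO of batch 1 and 518, 418, 241 and 140 in Notch2 cKO of batch 2, for 0, 1, 2 and 3 or more companion genes. In control it had 17.2, 32.7, 24.1 and 0 in batch 1 and 30.3, 27.4, 26.8 and 33.1 in batch 2. The gap between the genotypes in CPM was thus widest without companion genes in both batches. The batch 1 class with 3 or more held 17 cells in Notch2 cKO and 12 in control, so its values rest on few molecules. The trend over classes was not tested.

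**Figure D3:**
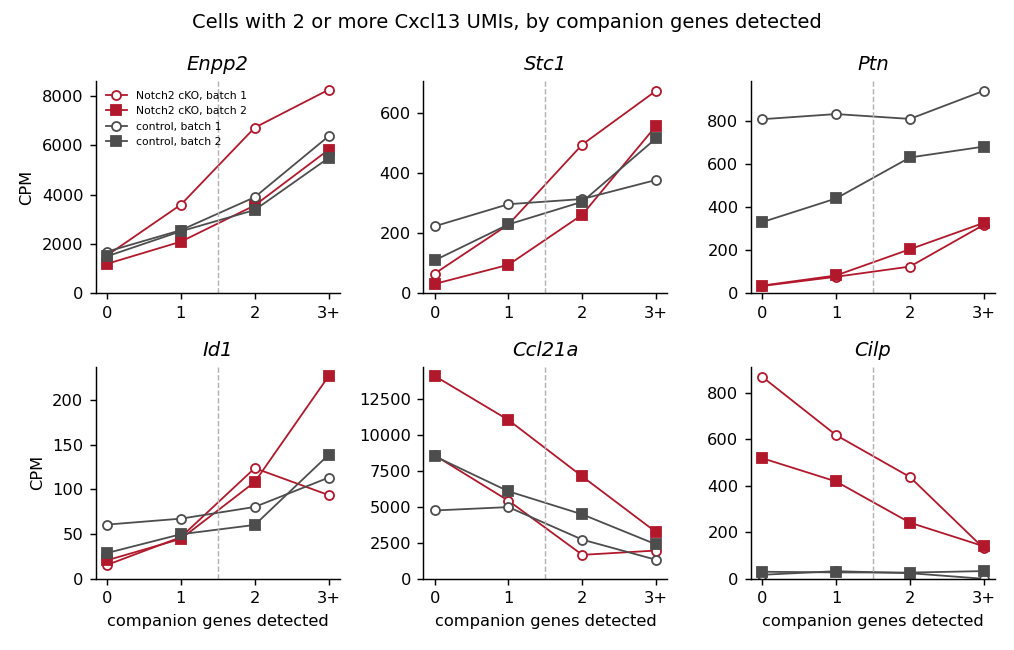
Level (CPM) of 6 genes in cells with at least 2 Cxcl13 UMIs by the number of companion genes detected; red is Notch2 cKO, grey control, open circles batch 1 and filled squares batch 2, and the dashed line is the edge of the rule. Enpp2 climbs at each step in all 4 libraries, Ccl21a is lower at 3 or more than at 0 in all 4, and Cilp declines in both Notch2 cKO libraries while it stays low in the controls.

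Cells with and without Hamp2 differed in other genes as well. In batch 2, Stc1 had 645 CPM in the 421 Hamp2-bearing cells of Notch2 cKO and 291 in the 598 without it, and in control 608 in the 495 with it and 246 in the 539 without it. Inmt stood at 1409 with and 806 without Hamp2 in Notch2 cKO, and at 821 and 421 in control. Both genes were thus higher with Hamp2 in both genotypes of batch 2. Median UMIs with and without Hamp2 were 7397 and 7837.5 in Notch2 cKO and 7299 and 7061 in control. In Notch2 cKO of batch 1 they were not higher. There Hamp2-bearing cells had 510 CPM of Stc1 and 971 of Inmt, against 555 and 1034 in all marginal reticular cells. In control of batch 1 they had 463 and 721, against 324 and 576. These are descriptions of cells split on a rule gene.

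Follicular dendritic cells were the nearest relatives excluded by the rule. Cells with Cxcl13 and the complement receptor gene Cr2, which marks them, numbered 5 and 143 in Notch2 cKO and 1 and 261 in control. In batch 2 they had 16330 CPM of Cxcl13 in Notch2 cKO and 17124 in control, above the marginal reticular cells of the same libraries. Mfge8, which encodes a bridging protein for apoptotic cells, had 6619 and 6182 in them, against 3622 and 2005 in the marginal reticular cells of Notch2 cKO and control. Tnfsf11 was at 90.5 and 108, well under its level in marginal reticular cells, and Stc1 at 63.3 and 83.7. Other leading genes were as high or higher in Cr2-bearing cells of at least 1 genotype. Blnk had 154 and 109 in them, against 102 and 72.4 in the marginal reticular cells of Notch2 cKO and control. Id1 had 150 and 148, against 177 and 105, and Galnt18 523 and 385, against 649 and 232. These genes set marginal reticular cells apart from Ccl21a-high cells and not from Cr2-bearing cells. Hamp was present in both kinds of cell, at 64.8 in Notch2 cKO and 318 in control Cr2-bearing cells.

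The genotype comparison within marginal reticular cells begins with the deleted gene. Notch2 had 18.9 and 32.6 CPM in Notch2 cKO and 33.1 and 52.8 in control, or 3 and 274 UMIs against 5 and 421. Each Notch2 cKO library was lower than the control of its batch, and the groups touched without overlapping. The log2 difference was -0.81 with a standard error of 0.31, not past the edgeR quasi-likelihood test (Benjamini-Hochberg adjusted p = 0.773). In Ccl21a-high cells, with 15.9 and 41.4 in Notch2 cKO and 40.5 and 63.3 in control, the log2 difference was -1.01 (adjusted p = 0.0118, edgeR). The libraries read the 3′ ends of transcripts, and the position of the floxed exons is not given in the labels, so Notch2 UMIs are not a check of deletion. In bulk sums of a population, fewer cells with a transcript and less of it per cell cannot be told apart.

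Across all genes, UMIs were summed over the cells of each library and tested with batch as a term. At an adjusted p under 0.05, 8 genes rose (0.0659% of the 12137 tested) and 5 fell (0.0412%) in Notch2 cKO marginal reticular cells, together 0.107%. At an unadjusted p under 0.05 there were 220 higher and 417 lower. This count is not stable, since the test has 1 residual degree of freedom and borrows the spread from other genes. DESeq2 called 5 genes, and the edgeR fit without the batch term 0 (67 higher and 77 lower at an unadjusted p under 0.05). Small changes of the rule or cell filter gave between 51 and 125. By direct count, 8 of the 13 called genes had the same sign in both batches. Of the 3325 tested genes at or above 50 CPM, 53.5% did.

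Of the genes that rose, 5 were higher in both batches. The matrix gene Cilp had 334 and 182 CPM in Notch2 cKO, against 19.9 and 30.4 in control, a log2 difference of 2.74 with a standard error of 0.33 (adjusted p = 0.0111, edgeR). The groups lay apart by a wide margin. Ncam1, which encodes the neural cell adhesion molecule, had 151 and 181 in Notch2 cKO, against 39.7 and 46.8 in control (log2 1.85, standard error 0.28, adjusted p = 0.0451, edgeR). Its log2 difference was 1.92 in batch 1 and 1.94 in batch 2.

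Ecrg4, which encodes the secreted peptide precursor augurin, had 164 and 273 CPM in Notch2 cKO, against 13.2 and 67.6 in control (log2 2.12, adjusted p = 0.0474, edgeR). Pdlim3, an actin-associated LIM protein gene, had 63.1 and 127 in Notch2 cKO, against 6.62 and 31.9 in control (log2 1.96, adjusted p = 0.0474, edgeR). The batch 1 control values stand for 2 UMIs of Ecrg4 and 1 of Pdlim3, against 26 and 10 in Notch2 cKO. Car3, a carbonic anhydrase gene, had 6.31 and 111 in Notch2 cKO, against 0 and 6.52 in control (log2 3.97, adjusted p = 0.00295, edgeR). In batch 1 the Car3 values stand for 1 UMI against 0, so its difference rests on batch 2.

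The other three genes that rose also rested on batch 2. Mmp16, a membrane-bound matrix metalloprotease gene, had 6.31 and 263 CPM in Notch2 cKO, against 13.2 and 17.8 in control, so that batch 1 went the other way on 1 UMI against 2. Lingo2, a leucine-rich repeat membrane protein gene, had 0 and 34.9 in Notch2 cKO, against 6.62 and 1.76 in control. Nlgn1, which encodes the synaptic adhesion protein neuroligin 1, had 0 and 36.3 in Notch2 cKO, against 0 and 4.39 in control.

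Among the genes that fell and are named here, the lipid and plasma protein genes Apoc1 and Vtn were lower in both batches. Vtn, which encodes the adhesive protein vitronectin, had 82.0 and 99.1 CPM in Notch2 cKO, against 344 and 316 in control (log2 -1.87, standard error 0.29, adjusted p = 0.0474, edgeR). Apoc1, an apolipoprotein gene, had 44.1 and 43.9 in Notch2 cKO, against 192 and 152 in control (log2 -1.94, standard error 0.28, adjusted p = 0.0323, edgeR). For both genes each control library held over 3 times the level of the Notch2 cKO library of its batch.

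Frmd5, a FERM-domain protein gene, had 0 and 3.69 in Notch2 cKO, against 0 and 54.1 in control. Il31ra, a subunit of the interleukin 31 receptor, had 0 and 46.3 in Notch2 cKO, against 0 and 190 in control. Frmd5, Il31ra and Nlgn1 had no UMI in either batch 1 library and can speak for batch 2 alone.

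With a library left out, the batch term was dropped from the fit, since nothing would be left for the spread. Many of these calls then ended, as all did when the term was dropped with all 4 libraries kept. The missing library and the dropped term cannot be told apart. Without the batch 2 control the log2 difference was 10.6 for Car3, 4.01 for Ecrg4 and 3.86 for Pdlim3. That of Il31ra was -11.29 without the Notch2 cKO library of batch 2 and -1.37 without that of batch 1. Without the batch term these values also hold the gap between batches and are not genotype differences alone. Il31ra had no UMI in either batch 1 library. With DESeq2 the 5 calls included 2 of the 13. The direction of each called gene named here was the same in every alternative in which it was tested.

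**Figure D4:**
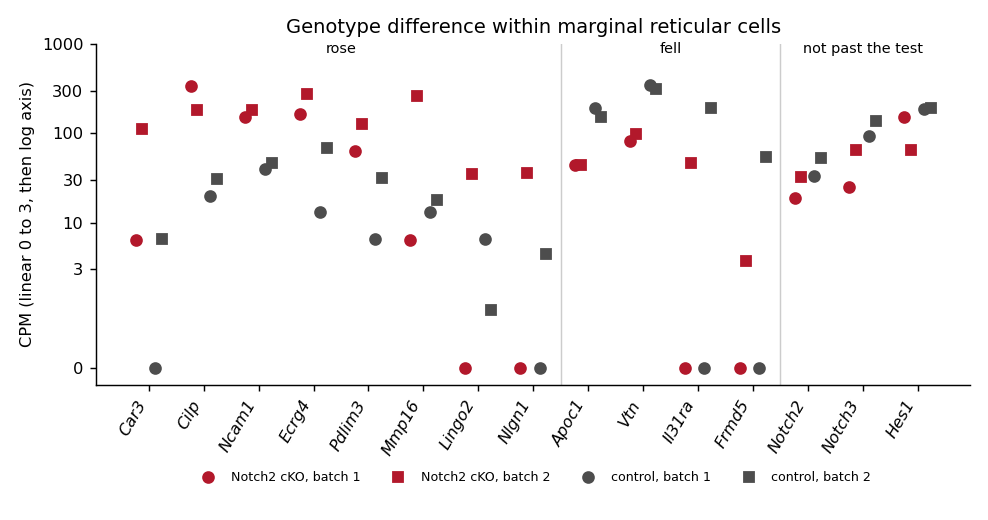
Levels (CPM, log axis above 3) in marginal reticular cells of each library, Notch2 cKO (red) left of control (grey), circles batch 1 and squares batch 2. The first 8 genes rose and the next 4 fell by the edgeR test; Notch2, Notch3 and Hes1 did not pass it. Cilp, Ncam1, Apoc1 and Vtn separate the genotypes in both batches, whereas Lingo2, Nlgn1, Il31ra and Frmd5 have at most 1 UMI in any batch 1 library.

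The promoter windows of Vtn and Ptn are shown as examples that hold the core described below. Vtn fell, and Ptn separates the genotypes in both populations below but did not pass the test within marginal reticular cells. Windows of other genes that rose or fell are not shown. Both come from RefSeq (GRCm38.p6) and hold the 250 bases before the start, in the direction of the gene. Capitals mark TGGGAA or its reverse complement TTCCCA, the core that RBPJ, the DNA-binding partner of Notch, is known to recognise.
Vtn, chr11:78498870-78499119, plus strand: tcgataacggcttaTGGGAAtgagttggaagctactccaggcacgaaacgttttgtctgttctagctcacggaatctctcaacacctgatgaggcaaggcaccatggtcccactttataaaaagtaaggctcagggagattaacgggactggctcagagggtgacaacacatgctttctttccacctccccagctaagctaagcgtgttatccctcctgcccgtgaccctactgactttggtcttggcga
Ptn, chr6:36810180-36810429, minus strand: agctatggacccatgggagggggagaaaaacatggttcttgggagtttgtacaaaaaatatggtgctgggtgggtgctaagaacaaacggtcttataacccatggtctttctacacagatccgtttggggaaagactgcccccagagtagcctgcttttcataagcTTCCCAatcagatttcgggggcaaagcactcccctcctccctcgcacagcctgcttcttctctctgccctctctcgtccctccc
This core, on either strand, was in 21.6% of all 32851 windows, and in 3 of the 8 called genes that had a listed window. Such a short match is common and is a description of the sequence. Hes1, Ncam1, Apoc1, Mmp16 and Car3 had no entry in the table.

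No gene of the Notch lists passed the test in these cells, where 0.107% of all genes did, so these counts say little about the pathway. Of 10 tested receptors and ligands 0 rose and 0 fell, with 3 lower at an unadjusted p under 0.05 and a median log2 difference of -0.46, against 0.00 over all genes tested. Notch3, a receptor gene also used as a pericyte marker, had 25.2 and 65.1 CPM in Notch2 cKO, against 92.7 and 137 in control (log2 -1.28, adjusted p = 0.202, edgeR). The ligand gene Jag1 had 31.5 and 37.0 in Notch2 cKO, against 66.2 and 51.6 in control (log2 -0.66, adjusted p = 0.950, edgeR). For both genes the groups did not overlap, although neither passed the test. Notch3 passed it under 6 of 14 alternative settings, with adjusted p-values from 0.00655 to 1.00 (edgeR and DESeq2), and Jag1 under 0 of 14.

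Of 7 tested Notch targets 0 rose and 0 fell, with 1 lower at an unadjusted p under 0.05 and a median log2 difference of -0.52. Hes1, the transcriptional repressor that is the best known target, had 151 and 64.2 CPM in Notch2 cKO, against 185 and 192 in control (log2 -1.26, adjusted p = 0.352, edgeR). The batch 1 values differed little and those of batch 2 about 3-fold. Hes1 passed under 7 of 14 alternative settings, with adjusted p-values from 0.00304 to 1.00 (edgeR and DESeq2). In Ccl21a-high cells, where 2.11% of all genes fell, 4 of 9 tested targets fell, Hes1 among them, with 85.3 and 54.6 in Notch2 cKO against 226 and 239 in control (log2 -1.80, adjusted p = 0.000318, edgeR). The difference between the populations for Hes1 was 0.63 on the log2 scale and did not pass (adjusted p = 0.0773, edgeR), nor did that for Notch3 (0.64, adjusted p = 0.114, edgeR).

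Lists of genes tied to the functions of marginal reticular cells held no called gene, against 0.107% of all genes, so these counts are not a result about the lists. Among 8 markers outside the rule, 17 genes of the lymphotoxin, RANK and NF-kB pathway, 17 homeostatic chemokines and cytokines and 11 hepcidin and iron genes, 0 rose and 0 fell. At an unadjusted p under 0.05 these lists held 1, 0, 1 and 1 higher and 0, 0, 3 and 0 lower genes. Their median log2 differences were 0.16, -0.08, -0.02 and 0.04. Mfge8 had 5978 and 3622 CPM in Notch2 cKO, against 2582 and 2005 in control, with no overlap between the groups (log2 0.98, standard error 0.34, adjusted p = 0.627, edgeR). Ccl19 had a log2 difference of -1.15 with a standard error of 0.33 (adjusted p = 0.411, edgeR), from the levels given above.

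Several single genes lay near the threshold and passed it under part of the alternative settings. The Wnt inhibitor gene Sfrp1 had 252 and 142 CPM in Notch2 cKO, against 39.7 and 46.3 in control (log2 1.75, adjusted p = 0.0625, edgeR). Cyp26b1, which encodes an enzyme that degrades retinoic acid, had 18.9 and 53.2 in Notch2 cKO, against 199 and 140 in control (log2 -1.79, adjusted p = 0.0816, edgeR). The groups did not overlap for either gene. Sfrp1 passed under 6 of 14 alternative settings and Cyp26b1 under 8 of 14.

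Ptn, from the levels given above, had a log2 difference of -1.68 with a standard error of 0.32 (adjusted p = 0.0913, edgeR), and passed under 8 of 14 alternative settings, DESeq2 among them. Lif, a cytokine gene of the interleukin 6 family, had 6.31 and 5.71 CPM in Notch2 cKO, against 13.2 and 25.1 in control (log2 -2.20, adjusted p = 0.0625, edgeR). Its batch 1 values stand for 1 UMI against 2, so its difference rests on batch 2. The heat-shock gene Hspa1b, which also responds to tissue digestion, had 114 and 60.1 in Notch2 cKO, against 338 and 188 in control (log2 -1.70, adjusted p = 0.0516, edgeR). Lif passed under 7 of 12 alternative settings and Hspa1b under 8 of 14. Of 16 early response and dissociation genes 0 rose and 0 fell, with 3 lower at an unadjusted p under 0.05.

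In the remaining lists, 0 of 10 inflammatory cytokine genes, 18 bone morphogenetic protein pathway genes, 14 Wnt modulators, 13 genes of cyclic GMP signalling and potassium channels and 26 matrix genes changed by the edgeR test. The same held for 9 complement, 13 antigen presentation, 16 interferon response, 7 retinoid, 13 contractile, 11 adventitial and 8 cell cycle genes. At an unadjusted p under 0.05, the most that any of these lists held was 3 higher genes, in the Wnt, antigen presentation and adventitial lists, and 5 lower genes, in the list of cyclic GMP and potassium channels. Of 14 adhesion genes 1, Ncam1, rose, against 0.0659% of all genes. The Ncam1 call was lost in DESeq2 and in every fit without the batch term, those with a library left out among them. A list of genes already known to differ by genotype in other reticular cells of these libraries had 24 tested members, of which 4 rose (Cilp, Ncam1, Lingo2 and Ecrg4) and 2 fell (Frmd5 and Apoc1). That list was chosen on these samples and is not independent evidence.

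In Ccl21a-high cells of the same libraries 298 genes rose (2.14% of 13904 tested) and 294 fell (2.11%), together 4.26%. They gave 8804705 to 10635131 UMIs per library in both batches, against as few as 151075 for marginal reticular cells, so the 2 counts differ in the depth behind them. The difference between the populations was therefore tested itself, in a fit with library and population terms. The genotype difference was more positive in marginal reticular cells for 81 genes (0.569% of 14235 tested) and more negative for 45 (0.316%), together 0.885%. In this fit edgeR estimated no variation of spread between genes, and DESeq2 called 1 gene, so the count depends on the tool. Where a library is left out below, the population by batch term was dropped too. Those values therefore also hold the gap between batches. Tnfsf11, Prkg2, Kcnq3 and Timd4 were among the 81, and as genes of the rule they are no finding. Their log2 differences in Ccl21a-high cells were -0.95, -1.19, -2.68 and -2.68. The rule asks for companion genes in marginal reticular cells of both genotypes and not in Ccl21a-high cells. The part of this choice in the differences of leading genes such as Ptn, Id1, Stc1 and Cyp2f2 was not tested.

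For Ptn and Pi15 the loss seen in Ccl21a-high cells was smaller in marginal reticular cells. Ptn differed by -3.40 on the log2 scale in Ccl21a-high cells (adjusted p = 5.44e-07, edgeR), and the difference between the populations was 1.69 with a standard error of 0.21 (adjusted p = 3.04e-12, edgeR). Notch2 cKO marginal reticular cells still held 189 and 276 CPM of Ptn, against 4.39 and 9.20 in Notch2 cKO Ccl21a-high cells. Pi15, a secreted peptidase inhibitor gene, had 44.1 and 64.3 in Notch2 cKO and 106 and 104 in control marginal reticular cells, and 4.59 and 9.67 in Notch2 cKO and 36.1 and 62.4 in control Ccl21a-high cells (difference 1.95, adjusted p = 7.09e-12, edgeR).

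Cyp2f2 and Madcam1 also fell in Ccl21a-high cells, by log2 differences of -1.94 and -2.27 (adjusted p = 0.000150 and 2.56e-05, edgeR). Within marginal reticular cells that of Madcam1 was 0.91 in batch 1, on 4 UMIs against 2, and -0.67 in batch 2. The difference between the populations was 1.63 for Cyp2f2 (adjusted p = 4.55e-07, edgeR) and 1.49 for Madcam1 (adjusted p = 0.000343, edgeR). Without the Notch2 cKO library of batch 2 it was 0.61 for Cyp2f2, and without the control of batch 2 it was 2.90 for Madcam1, and neither then passed the test. Apoc1 had a difference of 0.90 (adjusted p = 0.00363, edgeR), but its batches went opposite ways. Its log2 difference was -2.11 in marginal reticular cells against -1.76 in Ccl21a-high cells in batch 1, and -1.78 against -2.89 in batch 2.

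Id1 and Stc1 had no passing change in Ccl21a-high cells, with log2 differences of -0.75 and -0.67 (adjusted p = 0.135 and 0.302, edgeR). The difference between the populations was 1.63 for Id1 (adjusted p = 1.08e-08, edgeR) and 1.09 for Stc1 (adjusted p = 3.46e-05, edgeR). That of Id1 was 0.64 without the Notch2 cKO library of batch 2. Both are leading genes, and the part of the choice of cells in their differences was not tested. Mfge8, whose log2 difference was 0.98 in marginal reticular cells and 0.30 in Ccl21a-high cells, had a difference between the populations of 0.66 (adjusted p = 0.0146, edgeR). The Mfge8 call held under 2 of 9 alternative settings, that of Apoc1 under 3, those of Madcam1 and Stc1 under 5, that of Id1 under 6 and that of Cyp2f2 under 7.

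Fgf10 and Gdf10 were among the 6 largest positive differences. Fgf10, the fibroblast growth factor best known from lung and limb development, had 50.5 and 148 CPM in Notch2 cKO and 26.5 and 82.7 in control marginal reticular cells, and 2.89 and 5.50 in Notch2 cKO and 3.18 and 12.0 in control Ccl21a-high cells (difference 1.88, adjusted p = 2.72e-07, edgeR). Gdf10, a gene of the TGF-beta superfamily, had 69.4 and 21.9 in Notch2 cKO and 39.7 and 15.7 in control marginal reticular cells, and 7.38 and 4.17 in Notch2 cKO and 9.88 and 11.7 in control Ccl21a-high cells (difference 1.84, adjusted p = 2.00e-05, edgeR). Both stood higher in Notch2 cKO than in control marginal reticular cells in each batch and lower in Ccl21a-high cells. Neither passed the test within marginal reticular cells alone. Without the Notch2 cKO library of batch 2 the difference was 1.10 for Fgf10, and without the control of batch 2 it was 0.75 for Gdf10, neither past the test.

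Car3 had a difference of 3.44 (adjusted p = 0.00503, edgeR) and was at most 1.33 CPM in every library of Ccl21a-high cells. In all remaining cells without Pecam1 or Ptprc it had 13.2 and 25.5 in Notch2 cKO and 13.6 and 4.03 in control. In batch 1 those cells stood above the marginal reticular cells in both genotypes. The difference of Car3 was 0.84 without the Notch2 cKO library of batch 2 and 10.4 without the control of batch 2. Both values also hold the gap between batches. The interferon-inducible gene Ifi27l2a had 18.9 and 48.6 in Notch2 cKO and 13.2 and 40.5 in control marginal reticular cells, and 33.2 and 24.6 in Notch2 cKO and 61.2 and 75.5 in control Ccl21a-high cells (difference 1.85, adjusted p = 5.44e-11, edgeR). Without the Notch2 cKO library of batch 2 the difference for Ifi27l2a was -0.0525 and without the control of batch 2 it was 3.18, where neither passed.

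Igkc, the constant region gene of the immunoglobulin kappa light chain, is made by B and plasma cells and not by fibroblasts. It had 82.0 and 85.5 CPM in Notch2 cKO and 6.62 and 23.7 in control marginal reticular cells, and 11.9 and 12.5 in Notch2 cKO and 55.1 and 30.0 in control Ccl21a-high cells (difference 3.25, adjusted p = 1.66e-30, edgeR). In the remaining cells of the libraries it ran to 753 and 467 in Notch2 cKO and 535 and 49.0 in control. Against all those cells its difference was -1.16, the opposite direction, and without the control of batch 2 it was 5.98. The B cell markers Cd79a and Ms4a1 were at 0 in the Notch2 cKO library of batch 1 and at 3.21 and 0.714 in that of batch 2. In control Cd79a was at 19.9 and 3.14, and the part of free RNA was not tested.

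In the opposite direction, the gain of Ncam1 seen in Ccl21a-high cells was smaller in marginal reticular cells. Ncam1 had 153 and 97.5 CPM in Notch2 cKO and 4.43 and 7.43 in control Ccl21a-high cells, a log2 difference of 4.32 against 1.85 in marginal reticular cells. The difference between the populations was -1.92 with a standard error of 0.25 (adjusted p = 5.02e-11, edgeR), and -2.94 without the Notch2 cKO library of batch 2. The Notch2 cKO levels lay between 97.5 and 181 in both populations, and the control marginal reticular cells, at 39.7 and 46.8, were already several-fold above control Ccl21a-high cells. Cilp, by contrast, had a difference of -0.71 that did not pass (adjusted p = 0.109, edgeR), with 816 and 448 in Notch2 cKO and 44.1 and 44.9 in control Ccl21a-high cells.

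Some genes of antigen presentation by MHC class II went the same way as Ncam1. Of 14 tested antigen presentation genes 4 were more negative in marginal reticular cells (H2-Aa, H2-Ab1, H2-Eb1 and Cd74) and 0 more positive, against 0.316% and 0.569% of all genes. In Ccl21a-high cells 5 rose, against 2.14% of all genes. H2-Aa, which encodes a class II alpha chain, had 114 and 57.2 CPM in Notch2 cKO and 86.0 and 30.9 in control marginal reticular cells, and 219 and 130 in Notch2 cKO and 53.8 and 28.6 in control Ccl21a-high cells (difference -1.36, adjusted p = 3.53e-07, edgeR). The differences were -1.42 for the beta chain gene H2-Eb1 (adjusted p = 1.08e-08, edgeR) and -0.88 for H2-Ab1 (adjusted p = 0.000339, edgeR). The H2-Eb1 call held under 8 of 9 alternative settings, that of H2-Aa under 6 and those of H2-Ab1 and Cd74 under 3.

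Cd74, the invariant chain gene, had 1078 and 619 CPM in Notch2 cKO and 430 and 260 in control marginal reticular cells, and 1085 and 859 in Notch2 cKO and 326 and 211 in control Ccl21a-high cells. Its difference between the populations was -0.67 (adjusted p = 0.0155, edgeR). The groups did not overlap in either population, and within marginal reticular cells Cd74 did not pass the test (log2 1.22, adjusted p = 0.244, edgeR). The 7 macrophage markers summed to 25.2 and 29.8 in Notch2 cKO and 19.9 and 25.3 in control marginal reticular cells, and their part in the class II levels was not tested.

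Fbn2, Fbln5, Thbs4 and Fgd5 also had negative differences. Fbn2, which encodes the elastic fibre protein fibrillin 2, had 101 and 152 CPM in Notch2 cKO and 66.2 and 122 in control marginal reticular cells, and 56.9 and 63.2 in Notch2 cKO and 11.1 and 16.7 in control Ccl21a-high cells (difference -1.64, adjusted p = 9.85e-11, edgeR). Fbln5, also an elastic fibre gene, had a difference of -1.46 (adjusted p = 3.96e-05, edgeR). Thbs4, a thrombospondin gene, had 0 and 4.28 in Notch2 cKO and 13.2 and 8.78 in control marginal reticular cells. In Ccl21a-high cells it had 180 and 48.7 in Notch2 cKO and 51.1 and 27.8 in control (difference -1.95, adjusted p = 2.58e-05, edgeR). The difference of Thbs4 was -11.47 without the Notch2 cKO library of batch 2, a value that also holds the gap between batches. Fgd5, a gene of small GTPase activation, had a difference of -1.92 (adjusted p = 1.22e-06, edgeR). Of the 27 tested genes of the matrix list 2 were more positive (Fn1 and Postn) and 2 more negative (Fmod and Thbs2).

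**Figure D5:**
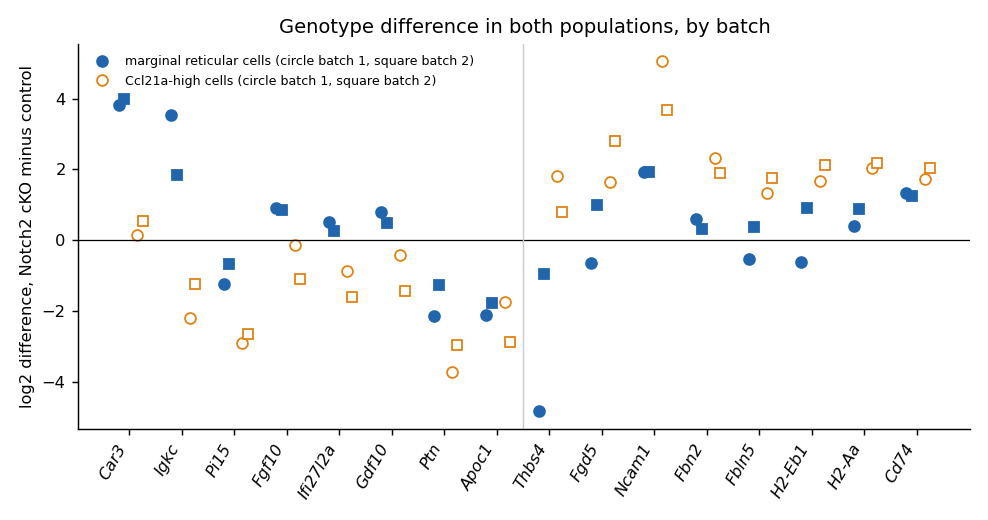
Log2 difference of Notch2 cKO minus control in each batch (circle batch 1, square batch 2), for marginal reticular cells (filled, left) and Ccl21a-high cells (open, right). The first 8 genes have a more positive difference in marginal reticular cells and the last 8 a more negative one; Ptn and Apoc1 lie below 0 and Ncam1 and Cd74 above 0 in both populations.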

How the data were processed

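Single-cell RNA-seq of 4 libraries (10x 3′ kit version 3.1) was analysed, 2 Notch2 cKO and 2 control. The authors deposited raw UMI counts per gene and cell barcode for 32285 genes. Per the file headers the Cell Ranger version was 5.0.1 for the batch 1 files and 7.1.0 for those of batch 2, while the submitters' processing notes name 5.0.1 alone, with mm10. The sources used here do not give whether intronic reads were counted, which bears on long genes when batches are compared.

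Counts were summed over the chosen cells of each library and compared in edgeR 4.0.16 by its quasi-likelihood test (TMM scaling, filterByExpr, batch as a term, Benjamini-Hochberg adjustment over all genes tested). CPM values are such sums divided by the population's total UMIs. The titles' replicate number is the batch number of the labels, so it pairs the libraries. Deviations of same-batch libraries from their group means correlated at 0.431 over 12137 genes. The difference between populations was the population by genotype term, with library, population and population by batch in the fit. Within-batch log2 differences add 2 counts. Libraries pool mice, so a replicate is a pool. With 1 residual degree of freedom, the spread behind the p-values came largely from other genes and not from each gene's own pools. The prior degrees of freedom were 10.5 within marginal reticular cells and infinite for the difference between populations. Shares were computed after thinning each cell to 2000 UMIs, with Clopper-Pearson 95% intervals and an exact permutation test over libraries. The fits were tested on simulated data.

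Named genes were those of the rule, Notch2, 14 fixed reticular genes, up to 12 called genes per direction with 1 sign in both batches and at least 20 CPM, up to 4 genes of lowest p per list, the leading genes against Ccl21a-high cells, and 6 per direction for the population difference. The other called genes, and further genes of the fixed lists, were named after their values were seen. A called gene that fell is counted but not reported by name here. The cells, lists and rules were chosen with earlier results of these data known. Python 3.11.15, R 4.3.3 and DESeq2 1.42.0 were used. Gene positions were taken from GENCODE M21 and promoters from RefSeq.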

Additional observations from a re-analysis of the deposited data

Results flagged for a closer look

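For 22 named genes the genotype difference itself differed between marginal reticular cells and Ccl21a-high cells, by the population by genotype term of the edgeR fit. The values are log2 differences of Notch2 cKO minus control in marginal reticular cells, less the same in Ccl21a-high cells. They were positive for Car3 (3.44), Igkc (3.25), Pi15 (1.95), Fgf10 (1.88), Ifi27l2a (1.85), Gdf10 (1.84), Ptn (1.69), Id1 (1.63), Cyp2f2 (1.63), Madcam1 (1.49), Stc1 (1.09), Apoc1 (0.90) and Mfge8 (0.66). They were negative for Thbs4 (-1.95), Fgd5 (-1.92), Ncam1 (-1.92), Fbn2 (-1.64), Fbln5 (-1.46), H2-Eb1 (-1.42), H2-Aa (-1.36), H2-Ab1 (-0.88) and Cd74 (-0.67). With 2 libraries in each group, single libraries could not be screened for values far from the others. The part of the choice of cells by companion genes in these differences was not tested.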

How the results depend on the processing

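The 13 genes called within marginal reticular cells became 122 without TMM factors, 127 without the filter on low counts, 5 with DESeq2 and 0 with no replicate block (67 higher and 77 lower at an unadjusted p under 0.05). Stricter rules gave 87 with at least 3 companion genes, 125 with at least 5 Cxcl13 UMIs, 51 with the rule applied at 2000 UMIs, 116 with at most 5% mitochondrial UMIs and 100 without cells above the 95th percentile of UMIs. Without cells holding a UMI of 10 defining markers of other cell types, an alternative chosen after seeing the data, 122 were called. Leaving out a library gave between 0 and 50. The spread borrowed from other genes moved with these settings, since the prior degrees of freedom were 10.5 in the reported fit and infinite in most alternatives. The planned fit without any cell holding a UMI of the listed markers left too few cells and could not be run.

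The 126 population differences became 1 with DESeq2 and between 9 and 97 with a library left out, 9 without the control of batch 2. The other settings gave 123 without TMM factors, 108 without the filter, 103 without the population by batch term and 186 against all other cells. Against all other cells the value of Igkc was -1.16. With a library left out, Ifi27l2a ranged from -0.0525 to 3.18 and Apoc1 from -0.0720 to 0.99, both lowest without the Notch2 cKO library of batch 2. With a batch 2 library left out, Car3 ranged from 0.84 to 10.4, the value was as low as 0.61 for Cyp2f2, 0.64 for Id1, 1.10 for Fgf10 and 0.75 for Gdf10, and Thbs4 reached -11.47. The difference in share ranged from -1.59 to 2.44 points with a library left out, at -1.14 without the control of batch 1, and was -0.0551 among cells with Pdgfra, Pdgfrb or Pdpn. The few UMIs of batch 1 limit each gene there.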
